A study of Rattus norvegicus with 13 samples.

Results

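DSB hotspots of 2 rat strains with different Prdm9 alleles, BN and WKY, were compared by their distance from each other and by how their strengths varied along the autosomes. BN hotspots were the windows of chromosomes 1 to 20 with a BN strength of 40 or more, and WKY hotspots those with a WKY strength of 120 or more. These thresholds gave 17891 BN and 29483 WKY hotspots, in 45749 of the 91120 autosomal windows and of the 96640 windows in the whole series. The BN library came from adult wild-type BN/RIJHsd testis (Brown Norway) and the WKY library from adult wild-type WKY testis (Wistar Kyoto), with 1 library per strain. Neither strain carried an engineered allele or received a treatment. For comparison, the adult SHR/OlaIpcv testis libraries of the series were used: wild type, which has the WKY allele of Prdm9, Prdm9+/- (KO/wt) and Prdm9-/- (KO/KO), with 1 library each. According to the study's text, the KO/KO library came from a single male homozygous for a truncating deletion of Prdm9, and the wild-type SHR library from a wild-type brother of the same litter. The tissue was whole testis, so the signal came from the meiotic cells within a mixed sample, and the number of animals behind the BN and WKY libraries is not given in the sources used here. No difference between the strains therefore has a replicate check, and no p-value is given. DMC1 single-stranded DNA sequencing (SSDS) was the assay, and rn5 the assembly. The series has 13 samples in all, and 5 DMC1 libraries have values in the table.

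DSBs start meiotic recombination, and DMC1 is the recombinase that coats the single-stranded DNA left at each of them. PRDM9 binds DNA with an array of zinc fingers, trimethylates histone H3 at lysine 4 beside its binding sites and thereby chooses where DSBs form. Alleles with different fingers bind different sequences, so they place hotspots at different positions. DSB activity also varies over megabases along mammalian chromosomes, and the comparison by bin size asks how far this broader pattern was common to strains whose individual hotspots differ.

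Strength was a whole number given by the authors, with no stated unit. The 17891 BN hotspots had a median strength of 79, with 55 and 133 as quartiles and 3008 as the highest value. The 29483 WKY hotspots had a median of 260, with quartiles of 172 and 442 and a highest value of 26104. WKY values were thus on a larger scale, and only ranks and shares were compared between the libraries. The top 10% by strength carried 33.6% of the BN sum and 30.2% of the WKY sum. At the edge of the thresholds, 300 windows had a BN strength of exactly 40 and 356 had 39, while 212 had a WKY strength of exactly 120 and 178 had 119. Hotspots passed the thresholds in 19.6% (BN) and 32.4% (WKY) of all autosomal windows. The authors' own hotspot calls covered 20.8% of the windows in BN (18995) and 38.3% in WKY (34872). Of the BN hotspots by threshold, 93.8% were also called in BN, and of the WKY hotspots 94.6% were called in WKY. The calls held another 2208 BN and 6971 WKY windows below the thresholds.

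BN hotspots lay at other positions than WKY hotspots in most cases. Of the 17891 BN hotspots, 1625 were WKY hotspots in the same window, a share of 9.08% (Wilson 95% interval 8.67 to 9.51%, covering the counting of hotspots only). This is below the 32.4% of all autosomal windows that passed the WKY threshold, a background which includes the windows entered in the table because of a WKY call. Counted from the other side, the 1625 windows were 5.51% of the WKY hotspots. With the authors' calls in place of the thresholds, both libraries had a call in 558 windows, 2.94% of the 18995 BN hotspots (2.71 to 3.19%).

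The count of 1625 depended on windows that lie on top of each other. Deposited windows are 3000 bp long and start at least 401 bp apart, and 17.4% of the autosomal windows overlap another. Among the 1625 windows past both thresholds, 940 overlapped another window. The share past both was 24.7% for BN hotspots that overlapped another window and 4.87% (4.52 to 5.23%) for the 14080 that overlapped none. Of the 1625, 417 were called in both libraries, 688 in WKY alone, 482 in BN alone and 38 in neither.

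Strength in a window depended on how far a hotspot of the other strain was from it. BN strength was read at windows called in WKY and not in BN, and compared with the BN strength of the BN hotspot next to them. When the starts were 401 to 600 bp apart (130 pairs), the window held a median of 93.9% of the strength of its neighbour, and 89.2% of these windows passed the BN threshold without a call. At 601 to 1000 bp (287 pairs) the median was 83.3%. It fell to 27.5% at 1001 to 1500 bp and was below 0, at -21.2%, at 1501 to 2000 bp, where 81.0% of the windows had a negative BN strength. From 3001 to 5000 bp the median was 10% and only 2.89% of the windows passed the threshold. WKY strength at BN hotspots changed in the same order with distance, with medians of 95.7%, 81.9%, 27.2% and -15.0% in the first 4 distance classes. Windows within 1000 bp of a hotspot thus mostly passed the threshold of a library in which they had no call.

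**Figure D1:**
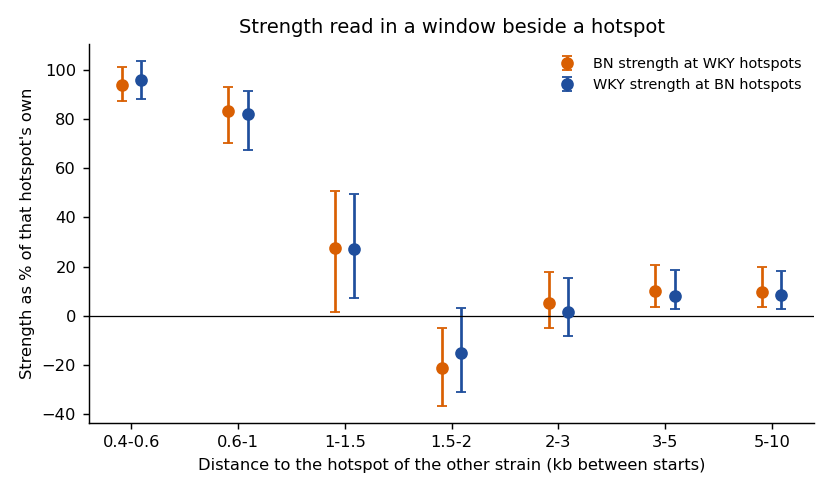
Strength of one strain at windows called in the other strain alone, as a percentage of the strength at the neighbouring hotspot (y axis), by the distance between their starts in kb (x axis), with points for medians and bars from the lower to the upper quartile of pairs. Strength was nearly as high as in the neighbour below 1 kb, below 0 at the median from 1.5 to 2 kb, and 8.20 to 10% of it at 3 to 5 kb.

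The distance from a BN hotspot to the nearest WKY hotspot, taken between window starts, had a median of 23.3 kb (95% interval of the median over hotspots 22.7 to 23.8 kb). Its quartiles were 8.10 and 50.3 kb. A WKY hotspot lay within 3 kb of 13.7% of the BN hotspots (13.2 to 14.2%), within 10 kb of 28.7%, within 30 kb of 58.2% and within 100 kb of 91.7%. In the other direction, from each WKY hotspot to the nearest of the fewer BN hotspots, the median was 42.8 kb (41.9 to 43.7 kb). By the authors' calls the medians were 20.9 kb from BN to WKY and 42.5 kb from WKY to BN. Only 2 BN hotspots were more than 1 Mb from a WKY hotspot, and both were near the start of a chromosome. The first (chromosome 13, 2934057 to 2937057) had a BN strength of 84 and a WKY strength of 40 and was 10714 kb away. The second (chromosome 8, 421808 to 424808) had 64 and 52 and was 1448 kb away.

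To set these distances against the local density of WKY hotspots, all BN hotspots were displaced by fixed distances of 20, 40, 60, 80 and 100 kb to either side, which gave 10 displacements. A displaced start within 400 bp of a WKY start counted as the same window, since deposited windows cannot start closer. Displaced BN hotspots fell in a WKY window in 1.22% of cases on average, with a range of 1.07 to 1.34%, against 9.08% at their own positions, which is 7.47 times as many. With the authors' calls the ratio was 2.23, from 2.94% at the own positions and 1.32% (1.21 to 1.45%) after displacement. For the BN hotspots that overlapped no window it was 4.31, from 4.87% and 1.13%, when displaced starts were compared with all WKY hotspots, and 5.53 when they were compared with the WKY hotspots that overlap no window. The size of the ratio thus depended on the definition, but the own positions had the larger share in each of the 10 displacements under both the thresholds and the calls.

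By the thresholds, the excess at the same window went together with a deficit just beside it. There, 4.64% of the BN hotspots had their nearest WKY hotspot at over 400 bp and under 3 kb, against 6.92% on average after displacement (6.54 to 7.59%). By the calls there was no such deficit, with 8.32% at the own positions, a displaced mean of 7.99% and a highest displaced value of 8.31%. As given above, windows within 1000 bp of a hotspot mostly passed the threshold of a library without a call there. Where such a window passes both thresholds it counts as the same window, and displaced starts cannot gain in this way. The ratio of 7.47 and the deficit by the thresholds are thus not like-for-like comparisons. At 3 to 10 kb the called hotspots had 18.2%, within the displaced range of 17.6 to 18.4%. Summed up to 10 kb, a WKY hotspot was near 28.7% of the BN hotspots by the thresholds against 23.7% after displacement (22.8 to 25%). By the calls these values were 29.5% and 27.3% (26.6 to 27.8%). Beyond the displacement itself the local comparison says little, because a hotspot moved by 20 kb still has its former partner within 30 kb.

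Larger displacements gave the wider density. Moved by 0.5 Mb, 21.9% of the BN hotspots had a WKY hotspot within 10 kb, and this share fell to 20.9% at 1 Mb, 20.3% at 2 Mb, 19.4% at 5 Mb and 18.8% at 10 Mb. The median distance rose from 23.3 kb at the own positions to 28.8 kb at 0.5 Mb, 32.3 kb at 2 Mb and 34.7 kb at 10 Mb. BN hotspots thus lay in parts of the chromosomes with more WKY hotspots, and this was still visible between displacements of 2 and 10 Mb. Displaced starts could also land in stretches without hotspots. No hotspot of either strain lay in 172 of the 2756 bins of 1 Mb and in 9 of the 286 bins of 10 Mb. How much of the fall comes from such stretches was not computed. Starts displaced beyond the span of the table were not counted, and at 10 Mb 16613 of the 17891 were kept on average.

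**Figure D2:**
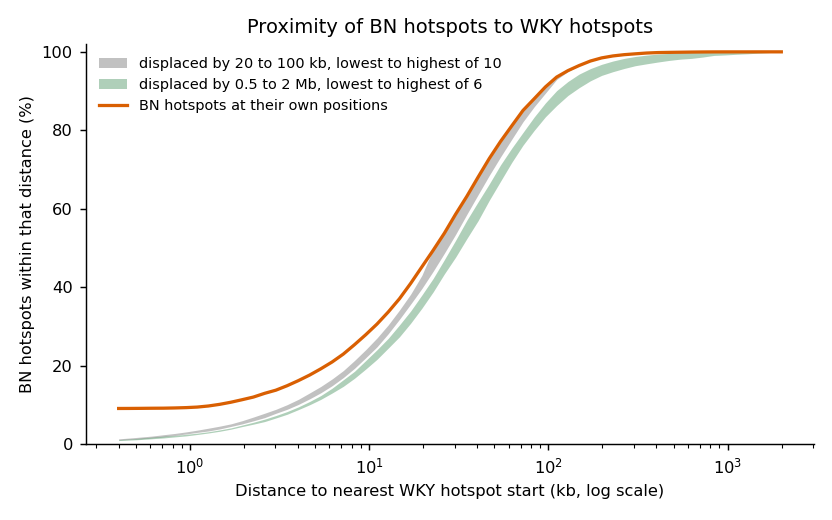
Percentage of BN hotspots (y axis) with a WKY hotspot start within the distance on the x axis (kb, log scale), at their own positions (line) and displaced by 20 to 100 kb or by 0.5 to 2 Mb (bands from the lowest to the highest displacement). At 400 bp the line is at 9.08%, above the local band of 1.07 to 1.34%, and the local band meets the line above 20 kb, where former partners are counted again.

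The density of WKY hotspots around BN hotspots fell steadily with distance. It was 18.0 per Mb at 3 to 10 kb from a BN hotspot, which is 1.67 times the autosomal mean of 10.8 per Mb. At 30 to 100 kb it was 14.7 per Mb, at 300 kb to 1 Mb 12.8 per Mb, and at 3 to 10 Mb 11.3 per Mb, or 1.05 times the mean. Around WKY hotspots themselves, the density of other WKY hotspots was 15.7 per Mb at 3 to 10 kb, 13.9 at 30 to 100 kb and 11.4 at 3 to 10 Mb. From 100 kb upwards WKY hotspots were therefore about as dense around BN hotspots (13.9 per Mb at 100 to 300 kb) as around WKY hotspots (13.2 per Mb). BN hotspots clustered more with each other, at 14.1 per Mb from 3 to 10 kb, 2.17 times their mean of 6.53 per Mb. Both means are over the whole 2740.6 Mb spanned by the windows, including stretches without hotspots. They are therefore lower than in the parts that hold hotspots, and a ratio of 1.05 does not by itself show clustering.

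Proximity changed little with BN strength. When the BN hotspots were divided by strength into 4 classes of equal size, the share in a WKY window was 9.10% in the weakest class (strengths of 40 to 55), 8.72% and 9.12% in the next 2, and 9.39% in the strongest (133 to 3008). By the calls the shares ran from 2.78% in the weakest class to 3.22% in the strongest. The median distance to a WKY hotspot shortened from 24.4 kb in the weakest class to 21.4 kb in the strongest. After local displacement the medians were 27.3 kb and 24.5 kb, so the shortening was also there once the hotspots had been moved.

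WKY strength at most BN hotspots was low. In windows that overlap no other, BN hotspots below the WKY threshold (13395) had a median WKY strength of 23, with 90% of them between -5 and 58. Windows called in the Prdm9-deficient SHR library and in no wild-type library (29650) had a median WKY strength of 19, with 90% between -8 and 49. Both sets were chosen to have no high WKY value, so their medians are given as levels and not as a comparison. In the other direction, the median BN strength was 9 at 22944 WKY hotspots and 8 at the same 29650 windows. The median WKY strength at BN hotspots was 24, 23, 24 and 24 from the weakest to the strongest class of BN strength among windows that overlap no other. Strong BN hotspots hence had no higher median WKY strength than weak ones. The mean WKY strength, which also counts the windows past both thresholds, was 39.1, 39.2, 43.1 and 56.2 in the same order.

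Windows past both thresholds were of different kinds, as the other libraries showed. Among the 685 that overlapped no window, 356 were called in both strains and 329 in 1 or neither. The 356 had median strengths of 84 in BN, 281 in WKY and 48 in wild-type SHR, the strain that shares the WKY allele, and 62.4% of them were also called in SHR. Of all autosomal windows 21.8% were called in SHR, and of the 22916 WKY hotspots that overlap no window, were called in WKY and stayed below the BN threshold, 63.0% were. The 356 were thus called in SHR about as often as other WKY hotspots. Their median in the Prdm9-deficient KO/KO library was 4, and 5.62% had a KO/KO strength of 20 or more. The 329 had similar medians in BN (75) and WKY (299), but a median of 23 in KO/KO, where 56.5% had 20 or more. Their medians were also 23 in SHR and 40 in KO/wt, and 33 of them were called in SHR. Calls in KO/KO were few, at 15 of the 685 windows and 1 of the 356. A KO/KO strength of 20 or more was found in 39.5% of all autosomal windows that overlap no other (29752 windows). It was found in 1.41% of the 22916 WKY hotspots and in 1.65% of 13361 BN hotspots chosen in the same way. Of the 29752, 28743 were called in KO/KO and in no wild-type library, so the 39.5% is no background for uncalled windows.

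The strength of BN and WKY was only weakly related within the shared windows. Across the 1625 windows the Spearman correlation was 0.17, across the 685 that overlap no other 0.26, and across the 356 called in both 0.09. Points in these correlations are windows of the same pair of libraries and are no replicates. The 5 windows ranking highest in both libraries together were singled out by the smaller of their 2 percentiles. Only 1 of them was called in both: at chromosome 1, 58462998 to 58465998, BN had 1519, WKY 9447, wild-type SHR 5 and KO/KO -3. No more than 2 autosomal WKY hotspots were stronger. Another window on chromosome 1, from 58043592 to 58046592, had 1529 in BN and 4284 in WKY and was called in WKY alone. Its strengths of 342 in SHR, 686 in KO/wt and 462 in KO/KO exceeded 300 in each of the other libraries. The window on chromosome 12 from 5494137 to 5497137, also called in WKY alone, had 964 in BN, 3813 in WKY, 265 in SHR and 465 in KO/KO. On chromosome 4, the remaining pair started 1.24 kb apart, at 209836405 and 209837648, had BN strengths of 1298 and 1281 and WKY strengths of 2704 and 2533, and was called in BN alone.

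Windows past both thresholds were also gathered in a few places. A set of 4 bins of 1 Mb, picked after their counts had been seen, each held 20 or more and together held 190 windows (11.7%), whereas the median over the 771 bins with any such window was 1. The bin from 9 to 10 Mb on chromosome 15 held 90 of them, among 100 BN and 109 WKY hotspots. There 26 were called in both strains, and 72 overlapped another window. Bins from 21 to 22 Mb on chromosome 7, from 186 to 187 Mb on chromosome 1 and from 24 to 25 Mb on chromosome 13 held 47, 33 and 20. In these 4 bins the windows past both had median KO/KO strengths of 11 to 39.

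Of the 3 strongest hotspots of each strain, 5 were below the threshold of the other strain. In BN, the highest value (3008) was on chromosome 1 from 153132652 to 153135652, where WKY had 13. A WKY hotspot with a strength of 817 started 2.51 kb away, and the BN strength there was -289. The second, on chromosome 1 from 70144951 to 70147951, had 2976 in BN and -18 in WKY, with a WKY hotspot of 212 at 2.08 kb. Next came chromosome 16 from 69422438 to 69425438, at 2814 in BN and -12 in WKY, with a WKY hotspot of 142 at 2.01 kb. All 3 thus overlapped a WKY hotspot window, and at each the BN strength in that window was below 0. Among WKY hotspots, the one of 817 was above the 90th percentile (726), and those of 212 and 142 were below the median (260). In WKY, the top value (26104) was on chromosome 3 from 53458839 to 53461839, with 9 in BN, and the nearest BN hotspot, with 181, was 20.9 kb away. The second WKY hotspot, on chromosome 1 from 153211965 to 153214965, had 13250 in WKY and -4 in BN, with a BN hotspot of 986 at 8.90 kb.

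**Figure D3:**
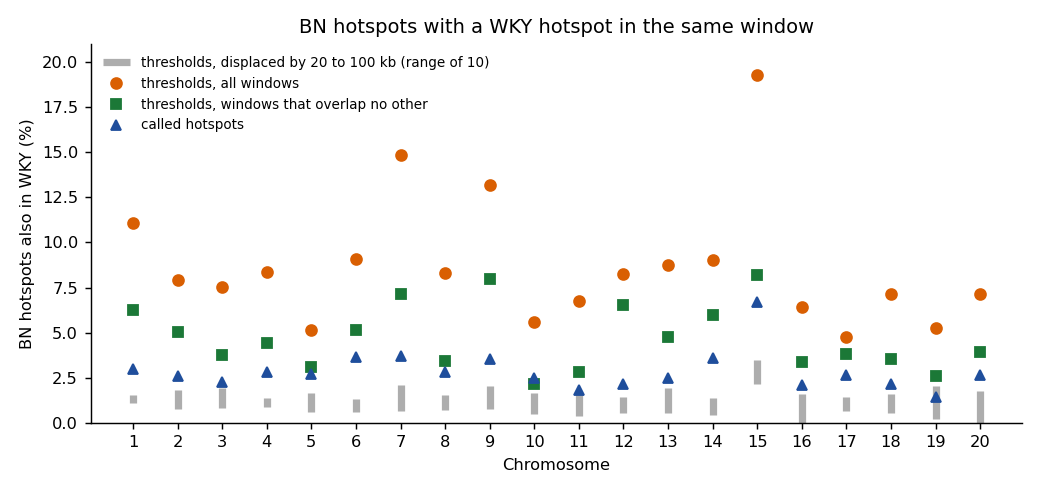
Percentage of BN hotspots in a WKY hotspot window (y axis) on each autosome (x axis) by the thresholds, in windows that overlap no other and by the authors' calls, with grey bars from the lowest to the highest of 10 displacements by 20 to 100 kb. By the thresholds, chromosome 15 is highest at 19.3% and chromosome 17 lowest at 4.73%.

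By chromosome, the share of BN hotspots in a WKY window ran from 4.73% on chromosome 17 (30 of 634) to 19.3% on chromosome 15 (160 of 829). Chromosome 7 had 14.9% and chromosome 9 13.2%. In windows that overlap no other the range was 2.17% on chromosome 10 to 8.19% on chromosome 15, and by the calls 1.44% on chromosome 19 to 6.68% on chromosome 15. Chromosome 15 was therefore the highest by each of these definitions, and 90 of its 160 windows were in the single bin named above. After local displacement chromosome 15 had 2.66%, also the highest of the 20 chromosomes. Median distances ran from 18.0 kb on chromosome 15 to 32.4 kb on chromosome 20.

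The correlation of summed strength between the strains rose with bin size, from 0.25 at 100 kb to 0.90 at 10 Mb. Each autosome was cut into bins, and the strengths of the BN hotspots and of the WKY hotspots were summed in each. The Spearman correlation was 0.25 in 27424 bins of 100 kb, 0.39 at 200 kb, 0.58 at 500 kb and 0.69 in 2756 bins of 1 Mb. It was 0.77 at 2 Mb, 0.86 at 5 Mb and 0.90 in 286 bins of 10 Mb. Bins of one chromosome share libraries and neighbouring sequence, so these values are descriptions. Bins of 100 kb with a BN hotspot held a WKY hotspot in 71.7% of cases and bins without one in 50.6%. Restricted to the 8334 bins of 100 kb with a hotspot of each strain, the correlation was 0.12, and with strengths summed over all windows of the table it was 0.58. At 10 Mb these values were 0.89 and 0.93. Empty bins thus carried much of the value at 100 kb and little of that at 10 Mb. The sums over all windows used the same 91120 windows for both strains. Of these, 6872 had a negative BN strength and 6704 a negative WKY strength. The number of windows in a bin therefore entered both sums, and 0.58 and 0.93 do not measure agreement of hotspots alone.

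Both the number of hotspots and their mean strength varied together between the strains. The correlation of the number of hotspots was 0.25 at 100 kb, 0.66 at 1 Mb and 0.87 at 10 Mb. For the mean strength per hotspot, in bins with a hotspot of each strain, it was 0.07 at 100 kb, 0.26 at 1 Mb, 0.38 at 2 Mb and 0.55 at 10 Mb. Within a region the finer agreement was smaller. After the mean of the surrounding 10 Mb bin was taken from the log2 strength of each 1 Mb bin, the correlation was 0.56, against 0.69 before. Bins of 100 kb centred in the same way within 1 Mb had 0.10, against 0.25. The broad agreement remained without the windows common to both strains. Without windows past both thresholds and without all windows that overlap another, the correlation was 0.88 at 10 Mb, 0.60 at 1 Mb and 0.16 at 100 kb.

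**Figure D4:**
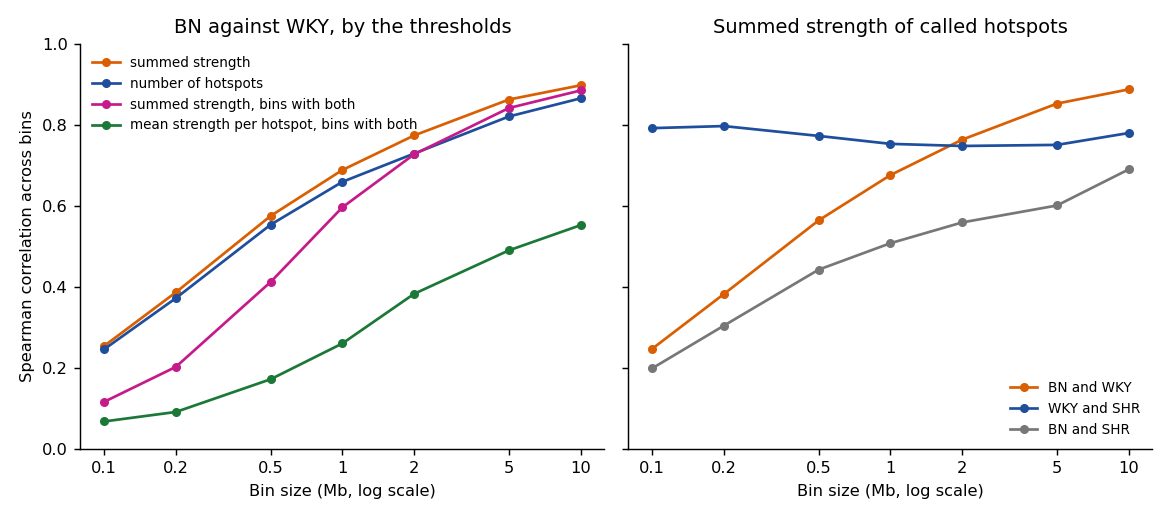
Spearman correlation across autosomal bins (y axis) by bin size in Mb (x axis, log scale), for BN and WKY by the thresholds (left) and for pairs of wild-type libraries by summed strength of called hotspots (right). BN and WKY rise from 0.25 to 0.89 or 0.90 in both panels, while WKY and SHR stay between 0.75 and 0.80.

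The same-allele pair WKY and SHR gave a different profile. By the authors' calls, the correlation of summed strength for WKY and wild-type SHR was 0.79 at 100 kb, 0.75 at 1 Mb and 0.78 at 10 Mb, so it hardly moved with bin size. For BN and WKY by the calls it was 0.25, 0.68 and 0.89. By summed strength, the pair with different alleles was thus the lower one up to 1 Mb and the higher one from 2 Mb, where it had 0.76 against 0.75. At 10 Mb it stayed higher by 0.09 to 0.12 when each of the 20 chromosomes was left out in turn. The number of called hotspots gave no such crossing, since BN and WKY had 0.69 against 0.79 for WKY and SHR at 2 Mb, 0.79 against 0.82 at 5 Mb and 0.83 each at 10 Mb. BN and SHR, the other pair with different alleles, had 0.20 at 100 kb and 0.69 at 10 Mb. At 10 Mb wild-type SHR and KO/wt had 0.95, and WKY and KO/wt had 0.75. These pairs share libraries, with 1 per strain and genotype, and strain, animal and library cannot be told apart.

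Against the KO/KO library, whose hotspots form without PRDM9, BN had a correlation of 0.25 at 100 kb and 0.68 at 10 Mb, and WKY had 0.27 and 0.76. With empty bins included, BN was therefore about as similar to KO/KO as to WKY (0.25) at 100 kb, and at 10 Mb it was closer to WKY (0.89). In bins with a called hotspot of both libraries, BN had 0.063 with KO/KO and 0.10 with WKY at 100 kb. At 10 Mb these were 0.65 and 0.88.

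In bins of 10 Mb with 20 or more hotspots of each strain, the strains differed by less than a factor of 2 almost everywhere. Summed strength was divided by the total of its library, and 265 of the 286 bins had 20 or more hotspots of each strain. The log2 ratio of the BN share to the WKY share had a median of -0.03 and an SD of 0.30 over these bins, and 263 of them (99.2%) were within 1 of 0. The 2 exceptions were on chromosomes 1 and 9. From 70 to 80 Mb on chromosome 1, 30 BN hotspots summed to 7013 and 40 WKY hotspots to 16929, a log2 ratio of 1.08. The second strongest BN hotspot of all lies there and held 42.4% of the BN sum, and without the strongest hotspot of each strain the ratio was 0.54. From 100 to 110 Mb on chromosome 9, 50 BN hotspots summed to 4681 and 148 WKY hotspots to 53740, a log2 ratio of -1.17. No single hotspot carried this bin, since the ratio was -1.31 without the strongest of each strain.

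**Figure D5:**
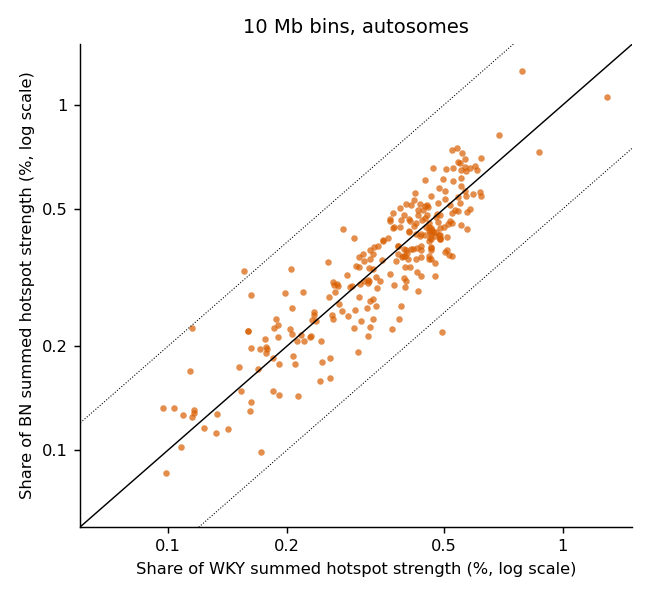
Share of summed hotspot strength (%, log scale) in BN (y axis) and WKY (x axis) for the 265 autosomal 10 Mb bins with 20 or more hotspots of each strain, with a solid line where the shares are equal and dotted lines at a factor of 2. Points follow the solid line, and 2 lie outside the dotted ones, with log2 ratios of 1.08 and -1.17.

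The next bins in each direction were from 10 to 20 Mb on chromosome 7 (log2 ratio 0.97) and from 20 to 30 Mb on chromosome 3 (0.80), and from 130 to 140 Mb on chromosome 4 (-0.80) and from 40 to 50 Mb on chromosome 20 (-0.72). High in both strains were the bins from 50 to 60 Mb on chromosome 3, which ranked 2 in BN and 1 in WKY, and from 150 to 160 Mb on chromosome 1, which ranked 1 in BN and 3 in WKY. The strongest WKY hotspot held 18.6% of the WKY sum in the former. In the latter, which has the strongest BN and the second strongest WKY hotspot, the strongest held 11.3% of the BN and 15.5% of the WKY sum. The bin from 20 to 30 Mb on chromosome 7 ranked 3 in BN and 4 in WKY, with 149 BN and 165 WKY hotspots. At the low end, bins cut by the end of a chromosome came first. The bin from 180 to 190 Mb on chromosome 3 was the lowest of the 265 in BN and second lowest in WKY. It held 21 BN and 36 WKY hotspots, but the table covers only 3.48 Mb of it. The bin from 110 to 120 Mb on chromosome 14, with 21 and 37 hotspots, is covered over 5.01 Mb. Among the 254 of these bins covered in full, the lowest in both strains were from 90 to 100 Mb on chromosome 5 (37 BN and 49 WKY hotspots), from 30 to 40 Mb on chromosome 16 (27 and 48) and from 0 to 10 Mb on chromosome 11 (29 and 43). The latter 2 were picked after the partial bins had been seen. Without the partly covered last bin of each chromosome, the correlation at 10 Mb was 0.88.

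The correlation at 1 Mb was above 0 on each of the 20 autosomes, from 0.46 on chromosome 10 to 0.87 on chromosome 4. In bins with a hotspot of each strain the value of chromosome 4 was 0.68 and the range was 0.37 on chromosome 11 to 0.69 on chromosome 2. Leaving out 1 chromosome at a time gave 0.66 to 0.70 at 1 Mb and 0.89 to 0.91 at 10 Mb. Whole chromosomes took similar shares of each strain's strength, from 1.49% of BN and 1.87% of WKY on chromosome 20 to 12.6% and 11.5% on chromosome 1. The shares differed most on chromosomes 20 and 13, with log2 ratios of BN to WKY of -0.32 and -0.30. The agreement at 10 Mb was as high without the ends of the chromosomes. The first 10 Mb held 6.35% of the BN and 6.47% of the WKY strength and the last 10 Mb 7.66% and 8.19%, and without both the correlation at 10 Mb was 0.90. BN hotspots in the first 10 Mb were closer to a WKY hotspot, with a median of 16.2 kb against 23.8 kb in the interior. Both strains had fewer hotspots per Mb in the first 10 Mb (5.70 against 6.55 in BN and 9.96 against 10.7 in WKY). These densities divide by the full 200 Mb, which includes stretches without WKY hotspots. On chromosome 13, the BN hotspot starting at 2934057 had its nearest WKY hotspot 10714 kb away. How much of the lower density comes from such stretches was not computed. The first 10 Mb include the bin from 9 to 10 Mb on chromosome 15, with 100 of their 1139 BN hotspots. In that bin 90 windows passed both thresholds, and the median distance without it was not computed.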

How the data were processed

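DMC1 SSDS libraries of BN and WKY testes were compared, with 1 library per strain. The authors aligned reads to rn5 with a modified bwa 0.7.12, retained type 1 fragments of single-stranded origin that mapped uniquely, and called hotspots in each library. MACS2 2.1.0.20150420 and bedtools 2.23.0 are named in the submitters' processing notes with no role. The deposited table gives for each library a strength, a score whose computation and normalization are not given in the sources used here, and a call of 1 or 0. Depth in reads is unknown. Coordinates are printed as deposited. No rn5 genome or annotation was used, so genes and sequences at hotspots were not analysed.

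Members, thresholds and measures were chosen with earlier results of these data known. Distances were taken between window starts, and BN starts were displaced by fixed distances, with no random draw. Displaced starts outside the table's span on a chromosome were dropped. Bins covered each chromosome from its first to its last window. Windows and bins named in the text were the 3 strongest hotspots of each library, the 5 windows past both thresholds with the highest smaller percentile, and the 10 Mb bins with extreme ratios or ranks among those with 20 or more hotspots of each strain. Other settings were the authors' calls, doubled thresholds, windows without overlap, the reverse direction, other statistics and other bins. Scripts ran on Python 3.11.15 (scipy 1.17.1, numpy 2.4.6, matplotlib 3.10.9, pandas 2.3.3), and the functions were tested on simulated positions.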

Additional observations from a re-analysis of the deposited data

How the results depend on the processing

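Of 65 other values computed, 25 stayed within the 95% interval of the reported one and 40 did not. The intervals cover the counting of hotspots or bins, and depth in reads is unknown. The settings with as many WKY as BN hotspots, without partly covered last bins, and without 1 Mb bins holding 20 or more windows past both thresholds, were chosen after seeing the data. No paired analysis was possible because each strain had 1 library.

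The share in the same window (9.08%) was 2.94% by the authors' calls, 6.17% with thresholds of 80 and 240, 4.87% in windows that overlap no other, 5.51% from WKY to BN, 6.12% with as many WKY as BN hotspots and 8.14% without the dense bins. In the same order, the share within 3 kb (13.7%) was 11.3%, 9.25%, 4.87%, 8.41%, 9.35% and 12.8%. The median distance (23.3 kb) was 20.9, 38.8, 31.5, 42.8 and 38.1 kb in the first 5. In windows that overlap no other, the share within 3 kb equals the same-window share by selection. No other window starts under 3 kb from them. The ratio to displaced positions (7.47) was 2.23 by the calls, 5.53 without overlapping windows of either strain, 8.89 with displacements of 0.5 to 2 Mb and 1.69 when any overlap counted.

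At 100 kb the correlation (0.25) was 0.19 with doubled thresholds, 0.58 over all windows, 0.068 for mean strength, 0.24 as Pearson of log2(sum + 1), 0.12 in bins with both strains, 0.16 without shared and overlapping windows, 0.24 without chromosome ends and 0.23 with equal numbers. At 1 Mb (0.69) it was 0.64 with doubled thresholds, 0.77 over all windows, 0.66 for number, 0.26 for mean strength, 0.82 as Pearson, 0.60 in bins with both strains and 0.60 without shared and overlapping windows. At 10 Mb (0.90) it was 0.93 over all windows, 0.87 for number, 0.55 for mean strength and 0.97 as Pearson. All of these correlations were above 0. Those over all windows use the same windows for both strains, so the number of windows in a bin enters both sums.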
